A study of Drosophila melanogaster with 2 samples.

Results

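The regions described here are 673 of the 5004 peak summits, 13.4% of the list (exact 95% binomial interval 12.5% to 14.4%), at which tagged Eip74EF was recovered from Drosophila melanogaster embryos outside genes and away from promoters. A summit was kept when it lay outside every annotated gene of any biotype except transposable elements and over 500 bp from the transcription start site (TSS) of every protein-coding gene. Within the list of 5004 the choice used positions alone, no summit was dropped for a low value, and all 673 enter every count given for them. The list itself had been thresholded by the authors for reproducibility, so peaks that did not pass are not among the 673. The remaining summits comprised 2063 promoter summits within 500 bp of a protein-coding TSS, 2057 intron summits and 211 exon summits. Of the summits left out, 741 lay outside genes but within 500 bp of a TSS. The nearest kept summit was 501 bp from a TSS and the farthest one left out was 498 bp away. The label "away from promoters" holds for protein-coding genes, since 51 of the 673 (7.58%) lay within 500 bp of the start of a noncoding gene or pseudogene.

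Both samples came from whole embryos of mixed sex, 8 to 16 h old, of a single transgenic line that stably expresses Eip74EF with eGFP (enhanced green fluorescent protein) at its C terminus. Chromatin was sonicated to 200 to 800 bp and precipitated with an antibody against GFP. The samples are biological replicates numbered 1 and 3 and form 1 group, with no untagged line or other condition to compare. The labels do not say whether they were separate embryo collections, the cell types that carry the protein cannot be told apart in whole embryos, and the files used here give no read depth. The summits were those of the authors' IDR list, the peaks that passed a test of reproducibility between replicates (irreproducible discovery rate). Each peak has a signal value in the authors' own units, relative to a control library, and p-values below are over summits, not over embryos.

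Eip74EF encodes a transcription factor of the ETS family, whose DNA-binding domain recognises sites built around GGAA. It was found as an early target of the steroid hormone ecdysone, which directs molting and metamorphosis and also rises in mid-embryogenesis. Sequence between genes can hold enhancers, DNA elements to which transcription factors bind and which can act on a promoter at a distance, so a summit's nearest gene need not be the gene it acts on.

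The longest ETS string searched, CCGGAAGT, stood within 50 bp of 12 summits and in none of their flanking windows. The lines that follow show 10 of the 12 sites, each with 10 bases on either side, read 5′ to 3′ on the strand that carries the string. They were chosen to show what the sites share beyond the 8 bases. Each is named by the protein-coding gene of the nearest TSS, capitals mark the string, and coordinates are dm6, with sequence from the RefSeq Release 6 genome.
jp (chr2L:9567461-9567488, plus strand): caaatctataCCGGAAGTagcatgcgcc
CG13786 (chr2L:7254893-7254920, plus strand): actgagatcaCCGGAAGTttacacaggt
CG9265 (chr2L:21072597-21072624, minus strand): gaaacactaaCCGGAAGTcagatgctaa
comm (chr3L:15736047-15736074, minus strand): attgtggtcaCCGGAAGTgggattatgt
ems (chr3R:13920376-13920403, minus strand): tgaccttttgCCGGAAGTgtccattgtt
CG4702 (chr3R:12121337-12121364, minus strand): agcaggcaaaCCGGAAGTcgaaaaagcg
CG31797 (chr2L:19249126-19249153, minus strand): gtccgacaaaCCGGAAGTaggttgacgc
Cys (chr3R:14570222-14570249, minus strand): taagagcataCCGGAAGTctgtgtgtaa
E(spl)mbeta-HLH (chr3R:26004861-26004888, minus strand): gagcccacagCCGGAAGTcgctgaatat
Ugt37B1 (chr2L:6211716-6211743, plus strand): gccaacgatgCCGGAAGTgtacacagat

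The 4 strongest regions with the shorter ETS core CGGAAG on the arms shown are printed next, 101 bases centred on the summit, plus strand, with the core or its reverse complement in capitals. The strongest region on these arms without it, nearest to CG31668, stands last for comparison.
Dip-B (chr3R:13794708-13794808): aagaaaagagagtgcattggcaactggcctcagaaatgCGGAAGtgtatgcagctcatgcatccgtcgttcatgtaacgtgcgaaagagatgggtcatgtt
jp (chr2L:9567439-9567539): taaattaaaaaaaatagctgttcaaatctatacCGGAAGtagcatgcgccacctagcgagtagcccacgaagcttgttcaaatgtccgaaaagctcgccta
TBC1D5 (chr3R:13274547-13274647): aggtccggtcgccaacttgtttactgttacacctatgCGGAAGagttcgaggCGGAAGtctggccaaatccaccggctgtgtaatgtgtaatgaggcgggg
sit (chr3R:22564377-22564477): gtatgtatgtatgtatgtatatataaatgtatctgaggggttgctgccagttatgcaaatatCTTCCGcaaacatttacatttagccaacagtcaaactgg
CG31668 (chr2L:2202365-2202465): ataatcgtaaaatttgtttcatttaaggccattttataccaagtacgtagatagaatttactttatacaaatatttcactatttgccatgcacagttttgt

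The window near Dip-B, a gene for a dipeptidase, had a signal of 1578, and the windows near jp, TBC1D5 and sit had signals of 1034, 720 and 665. The TBC1D5 window holds the core at 2 places. The CG31668 window had a higher signal than all 4, 1720, and its G+C content was 26.7%, against 47.5% in the Dip-B window.

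The ETS core was more common at the intergenic summits than in the sequence beside them. CGGAAG was present on either strand within 50 bp of 52 of 673 summits (7.73%). Windows of the same 101 bp centred 400 bp to the left held it at 17 regions and those to the right at 16, a mean of 2.45%. The share at the summit was 3.15 times that of the flanks (exact McNemar test, two-sided, against the flank with the larger p, adjusted exact p = 0.000232 over 23 strings by the Benjamini-Hochberg method). CCGGAAGT was present at 12 summits (1.78%) and in 0 flanks on either side (adjusted exact p = 0.00562), and all 12 of its summits are among the 52. These were the 2 of 23 strings called higher, 8.70% of the panel, and none was called lower.

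Both calls depended on the list of peaks. In the 627 regions that meet the rule among the strongest 5004 peaks of replicate 1, without replicate 3, the core was 2.64 times as common at the summit (adjusted exact p = 0.104), and in the 687 from replicate 3 it was 2.83 times as common (adjusted exact p = 0.0015). Over all settings tried, the adjusted p for the core ran from 6.94e-05 to 0.104. For CCGGAAGT the difference from the flanks was 0.718 percentage points without replicate 3 (adjusted exact p = 0.877) and 1.75 without replicate 1 (adjusted exact p = 0.00562). That call also ended among the peaks above the median signal of the list (1.60 points, adjusted exact p = 0.479), beyond 2000 bp from a TSS (1.35 points, adjusted exact p = 0.18), and in windows of 25 bp (1.19 points, adjusted exact p = 0.0898) or 100 bp (1.56 points, adjusted exact p = 0.149) to either side.

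Among the 52 regions, chosen for a core within 50 bp, its median distance from the summit was 16 bp, against 25.5 bp for the homeodomain string in the 68 regions chosen in the same way. The difference was not tested. In bins of 50 bp, 5.05% of regions had a core just left of the summit and 2.97% just right of it. The other bins within 500 bp ranged from 0.446% to 2.97%. CCGGAAGT was at 8 regions in the bin just left of the summit, 4 just right of it and 4 at 200 to 250 bp to the left. The remaining bins within 500 bp held it at 0 to 2 regions each.

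The bases beside the core differed in how often they occurred at summits. CCGGAAGT was found at 12 summits and no flank, and GCGGAAGT at 11 summits, 1 left flank and 2 right flanks. GCGGAAGC was at 6 summits and 2 flanks, and ACGGAAGT at 6 summits and 3 flanks. TCGGAAGT was at 2 summits against 4 left and 3 right flanks, and GCGGAAGG at 0 summits against 3 and 2. These octamer counts are too small to rank and were not tested.

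The 52 regions with the core had a median signal of 298, against 269 for the 621 without it, with quartiles of 215 to 486 and 217 to 401 that overlap over most of their range. Their median G+C content was 43.6%, against 31.7% for the rest. Of the 100 strongest intergenic regions 11 held the core, and of the 10 strongest 1 did, the region near Dip-B. The core was present at 10.1% of regions 0.5 to 1 kb from a TSS, at 7.03% to 8.70% in the bins from 1 to 20 kb, and at 1 of 41 regions (2.44%, 0.0617% to 12.9%) beyond 20 kb.

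No other transcription factor string in the panel passed the test, and 1 of the 21 had an unadjusted p under 0.05. TAATTA, bound by many homeodomain factors, had a share of 10.1% at summits and 6.98% in flanks (adjusted exact p = 0.289), the Mef2-type string TATTTATA at 3.71% and 1.63% (adjusted exact p = 0.289), and the GATA string AGATAA at 8.32% and 6.39%. The E-box CAGCTG, a site type of basic helix-loop-helix factors, was at 1.93% of summits and 4.23% of flanks (adjusted exact p = 0.289, unadjusted exact p = 0.0385). The CA repeat CACACACA was at 1.19% and 3.42% (adjusted exact p = 0.289). The string AGGTCA, part of the sites of many nuclear receptors including those that act downstream of ecdysone, was at 1.93% of both.

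The remaining strings were found at similar or low shares of summits and flanks. Forkhead TGTTTAC was at 2.82% and 1.86%, Runt AACCACA at 2.38% and 1.49%, Tramtrack AGGATAA at 1.19% and 0.594%, and the E-box CATATG at 4.46% and 4.01%. The forkhead flanks were unequal, with 3.27% to the left, above the share at summits, and 0.446% to the right. GAGAGAG, bound by GAGA factor, was at 1.34% and 2.45%, and TCF ATCAAAG at 1.49% and 2.15%. Zelda CAGGTAG was at 4 summits (4 left and 6 right flanks), AP-1 TGACTCA at 6 (8 and 9) and Su(H) GTGGGAA at 8 (12 and 10). Mad GGCGCC was at 9 (7 and 6) and POU ATGCAAAT at 11 (15 and 13). E-box CACGTG was at 3 summits (8 left and 9 right flanks) and Grainyhead ACCGGTT at 2 (2 and 3). DREF TATCGATA was at 1 (0 and 0) and the run AAAAAAAA at 48 (51 and 40). A match is a run of letters and not a measured binding site.

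**Figure D1:**
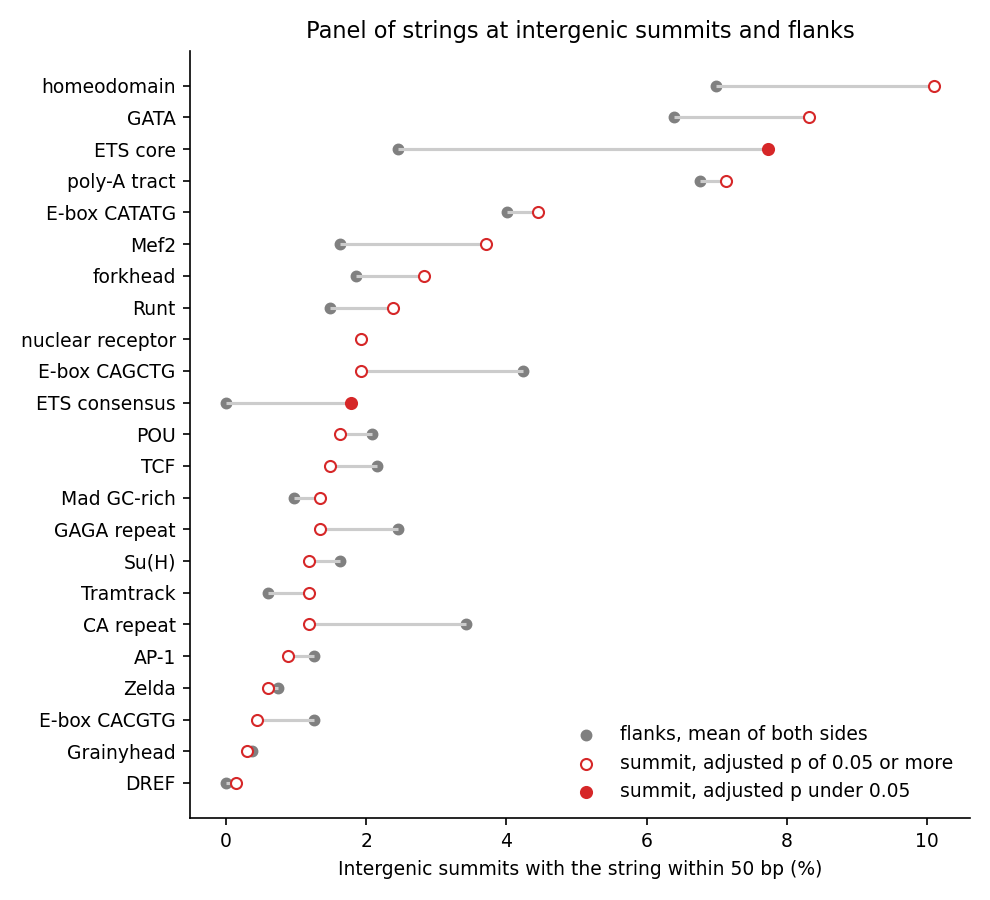
Share of the 673 intergenic summits (x axis, %) with each string of the panel within 50 bp on either strand, in red, beside the mean of both flanks 400 bp away, in grey. Filled red points have an adjusted p under 0.05 in the exact McNemar test; the ETS core (7.73% against 2.45%) and the ETS consensus (1.78% against 0) are filled.

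The plot of the panel shows the ETS core as the string with the widest gap between summit and flank in percentage points. The homeodomain string was more frequent at summits than the core and was also frequent in flanks.

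The summits sat in AT-rich sequence. Mean G+C content was 33.8% within 50 bp of the summit, 42.8% in the left flank and 42.7% in the right, and 40.7% over all sequence that meets the rule. At 133 regions the 101 bp window had a G+C content of 25% or less. The dip was also present at intron summits (35.1%) and promoter summits (37.03%), and it was deepest at the intergenic ones. These class values are a description without a test.

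**Figure D2:**
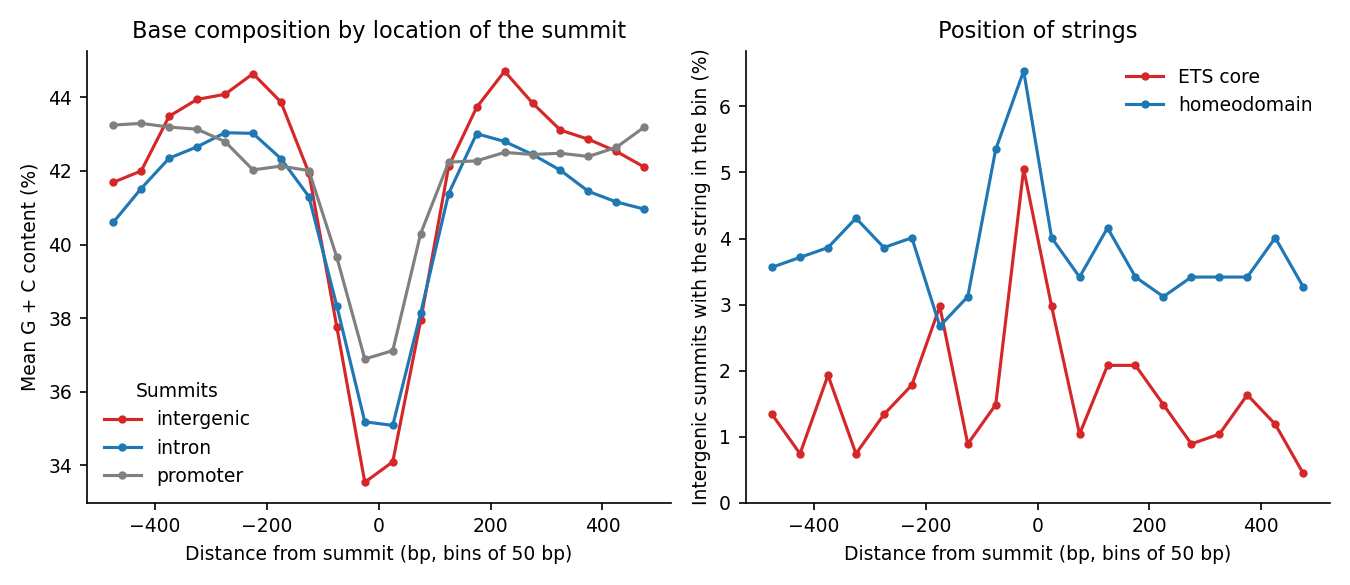
Left, mean G+C content (%) in bins of 50 bp by distance from the summit (bp) for intergenic, intron and promoter summits, with a minimum at the summit in each. Right, share of intergenic summits (%) with the ETS core or the homeodomain string in each 50 bp bin; the core reaches 5.05% in the bin just left of the summit.

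In the scan of all hexamers, with both strands merged, most of the hexamers called higher had little G or C. Of all hexamers 86 (4.13%) were more common at the summit than in both flanks and 51 (2.45%) less common (exact McNemar test, adjusted over all hexamers). The counts were 49 and 17 without replicate 3, and 50 and 26 without replicate 1. The 5 with the smallest adjusted p among the higher ones contain no G or C. ATATTA was at 22.1% of summits and 6.84% of flanks (adjusted exact p = 8.97e-10), TAAATA at 28.7% and 12.7%, ATATAA at 21.5% and 8.99%, ATTTAA at 27.3% and 13.2%, and ATTATA at 18.4% and 7.13%.

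The hexamers less common at the summit were rich in G and C. CCTGCC was at 0.297% of summits and 4.38% of flanks (adjusted exact p = 0.00042), GCGACA at 1.19% and 5.72%, CAGTCG at 0.743% and 4.53%, CCTGGC at 0.743% and 4.53%, and ACCGCA at 0.446% and 3.64%. Of the 86 higher hexamers 79 had 0 or 1 G or C. CGGAAG, with 4, was the 1 higher hexamer with 3 or more (adjusted exact p = 0.00109 in the scan). The 60 hexamers with its base composition had a median summit-to-flank ratio of 0.529, with 1 called higher, the core itself, and 3 called lower. The part of base composition in the hexamer calls was not tested.

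None of the 46 comparisons of string shares between the intergenic regions and intron or promoter summits passed the threshold (Fisher's exact test, two-sided, smallest adjusted p = 0.0516), although 12 had an unadjusted p under 0.05. The core was at 7.34% of intron summits, a difference of 0.386 percentage points (95% interval -1.77 to 2.88), and at 6.83% of promoter summits, a difference of 0.892 points (-1.24 to 3.37). CCGGAAGT was at 1.78% of intergenic, 0.681% of intron and 0.485% of promoter summits, a difference from promoters of 1.30 points (0.437 to 2.62, adjusted exact p = 0.0516).

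Several other strings also stayed above the threshold, with adjusted p from 0.0516 to 0.0899 in Fisher's exact test. TATCGATA, the site of DREF, a factor found at promoters of housekeeping genes, was at 0.149% of intergenic and 1.55% of promoter summits, a difference of -1.40 points (-2.04 to -0.580, adjusted exact p = 0.0516). The Runt string was at 2.38% against 0.824% of promoter summits (adjusted exact p = 0.0516) and GAGAGAG at 1.34% against 3.30% (adjusted exact p = 0.0678). The CA repeat was at 1.19% against 3.01% of promoter summits (adjusted exact p = 0.0678). The forkhead string was at 2.82% against 5.06% of intron summits (adjusted exact p = 0.0899). With windows of 100 bp to either side, 7 comparisons passed the threshold, and with the strongest peaks of replicate 3 alone, without replicate 1, 3 did. With those of replicate 1 alone, without replicate 3, 0 did. Fisher's test there gave CCGGAAGT against promoters an adjusted exact p of 0.835. The values were 0.299 for GAGAGAG and 0.0574 for TATCGATA against promoters, and 0.109 for forkhead against introns.

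Most of the intergenic summits were found in both replicates. A summit lay within 100 bp in both replicate lists for 640 of 673 (95.1%, 93.2% to 96.6%), in replicate 1 alone for 8, in replicate 3 alone for 24 and in neither for 1. The IDR list was derived from these lists, so part of this overlap is built in. The share was 94.0% for intron summits (Fisher's exact test, two-sided, adjusted exact p = 0.339) and 89.8% for promoter summits (adjusted exact p = 2.28e-05). The difference from promoters turned when only the strongest 5004 peaks of each replicate list were used, at -1.78 percentage points (adjusted exact p = 0.507). Over the settings tried it ran from -1.78 to 5.82 points.

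In the replicate 1 list the 648 regions found had signals of 21.8 to 736 with a median of 102, against 35.6 for the whole list of 30000 peaks. In the replicate 3 list the 664 found had signals of 27.9 to 1347 with a median of 177, against 52.8. Each list has its own scale, so the lists' values are not compared as levels. Across the 640 regions in both lists, Spearman's rho was 0.729 and Pearson's r on the log2 scale was 0.794. These are descriptions across regions that share the same 2 libraries.

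**Figure D3:**
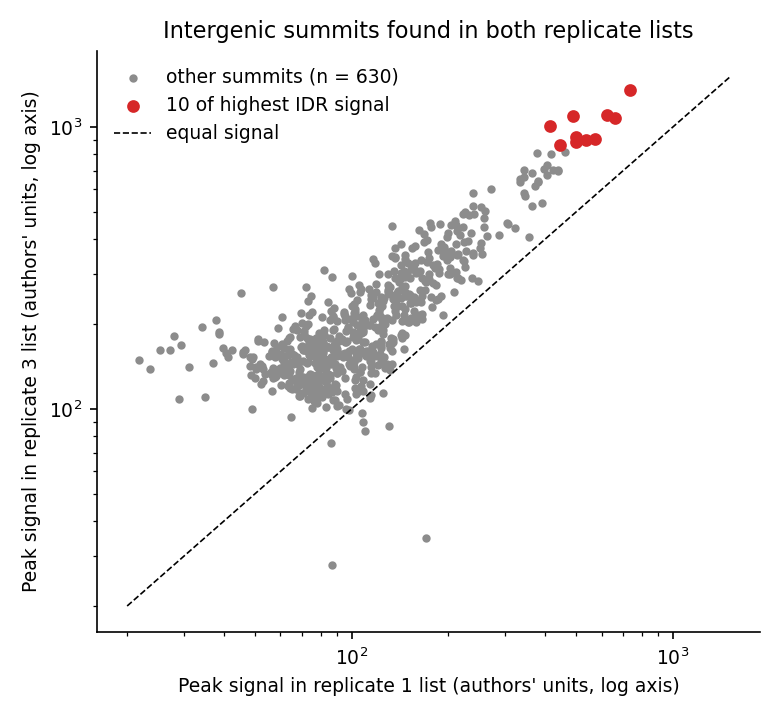
Peak signal in the replicate 1 list (x axis) and the replicate 3 list (y axis), both in the authors' units on log axes, for the 640 intergenic summits found in both. The dashed line is equal signal; 630 points lie above it, and the 10 regions of highest IDR signal, in red, are at the upper right.

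The plot of replicate signals shows most points in a band above the equal-signal line. The 10 regions of highest IDR signal had 413 to 736 in replicate 1 and 860 to 1347 in replicate 3. They were chosen by a signal that draws on both replicates.

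The IDR signals of the intergenic regions ran from 185 to 2092, within a list that reached 3792, with a median of 271 and quartiles of 216 and 403, and 23 exceeded 1000. Median signal was 281 for intron and 290 for promoter summits, and median peak width was 390 bp against 364 and 456 bp. Intergenic summits were 50 of the 501 strongest peaks (9.98%) and 77 of the 500 weakest (15.4%), with 11.6% to 14.8% in the groups of about 500 between. In the pooled list their share was 13.4% among ranks 1 to 5004 and 23.5% among ranks 20001 to 30000.

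The strongest region had a signal of 2092 (736 in replicate 1 and 1347 in replicate 3) and lay at 2R:13035320, 11936 bp from the TSS of CG13323, in the gap between that gene and Su(z)2. The next had 1750 (659 and 1078), at 2R:12985194, 4200 bp upstream of Psc. Su(z)2 and Psc are neighbouring genes of the Polycomb group, whose products keep developmental genes repressed. The Psc region lies 173 bp from the start of a long noncoding RNA gene.

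The other regions among the 10 strongest had signals of 1304 to 1720. The region near CG31668 (2L:2202415) had 1720 (621 and 1099) and the one near Dip-B (3R:13794758) had 1578 (488 and 1094), in the gap next to tal, which encodes short peptides needed in leg and epidermal development. The region 3324 bp from the TSS of CycB, the gene for the mitotic cyclin B, had 1479 (570 and 909) at 2R:22802979. It lies in the 1.34 kb gap between the convergent genes blw and CycB. The region 5760 bp from the TSS of eEF1gamma, a translation elongation factor gene, had 1439 (536 and 898) at 3R:29214412 and lies 150 bp from a noncoding start.

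The region 12467 bp upstream of chinmo, a BTB zinc-finger gene that sets temporal identity in neurons and stem cells, had 1419 (498 and 924) at 2L:1638791. The region near hll (2L:14024107) had 1413 (413 and 1010) and lies 8 bp from a noncoding gene. Near DNAlig3, a DNA ligase gene, the signal was 1385 (499 and 887) at 3R:12403135. At 19138 bp from the TSS of CG43245 the signal was 1304 (446 and 860), at 3L:10752787. Of the 156 regions over 10 kb from any protein-coding TSS, the 3 strongest were those near CG13323, Dip-B and chinmo.

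Intergenic summits were denser near genes. The sequence that meets the rule is 37.1 Mb, 27.7% of the called bases of the arms, and held 18.2 summits per Mb (16.8 to 19.6, exact Poisson interval). Density was 47.5 per Mb at 0.5 to 1 kb from a TSS (99 summits), 37.1 at 1 to 2 kb (128), 23.9 at 2 to 5 kb (180), 15.4 at 5 to 10 kb (110), 17.2 at 10 to 20 kb (115) and 4.03 (2.89 to 5.47) beyond 20 kb (41). The median distance to a TSS was 3626 bp, with quartiles of 1545 and 9367 bp and a maximum of 59549 bp. From the edge of any gene, the median was 1505 bp, and 283 summits (42.1%) lay over 2 kb away.

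**Figure D4:**
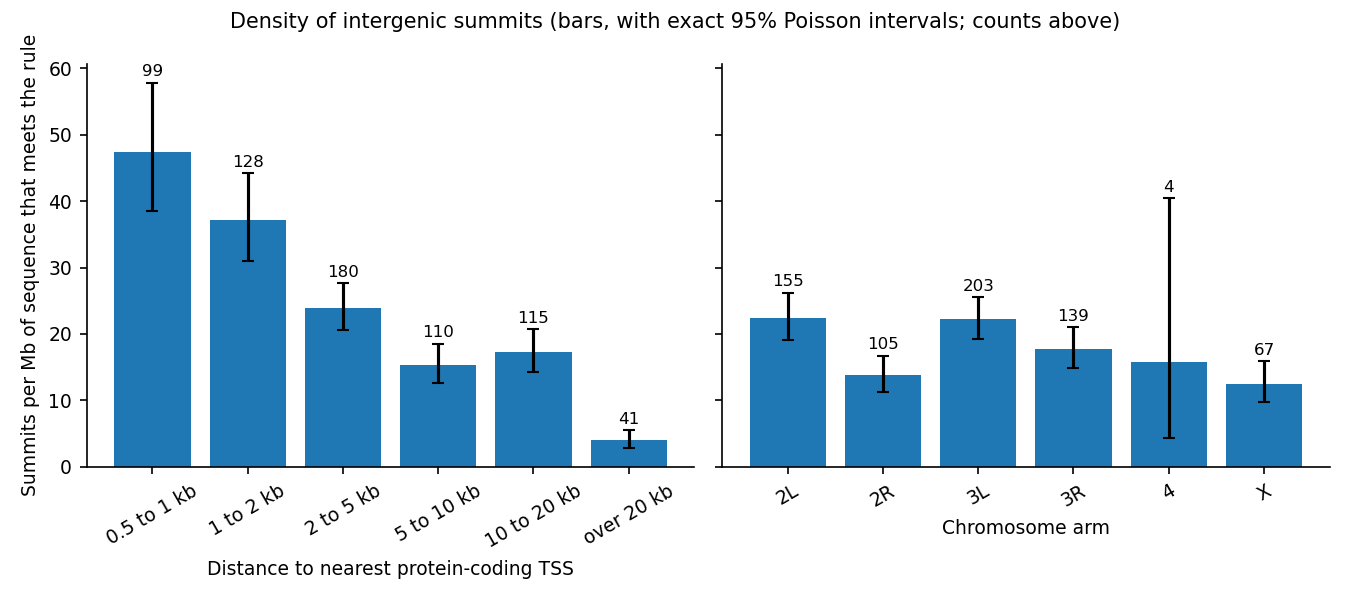
Intergenic summits per Mb of sequence that meets the rule (bars, with exact 95% Poisson intervals for counting error, counts above) by distance to the nearest protein-coding TSS (left) and by chromosome arm (right). Density falls from 47.5 per Mb at 0.5 to 1 kb to 4.03 beyond 20 kb, and is 22.4 on 2L and 12.5 on X.

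Arms differed less than distances. Density was 22.4 per Mb on 2L (155 summits), 22.3 on 3L (203), 17.8 on 3R (139), 13.8 on 2R (105) and 12.5 on X (67, interval 9.69 to 15.9), and chromosome 4 had 4 summits. The 4 large autosome arms together had 19.1 per Mb (17.6 to 20.7). The differences between arms were not tested.

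Summits lay more densely upstream than downstream of the nearest TSS close to genes. Of the 673 summits 445 (66.1%) were upstream of the nearest TSS, where 59.2% of the sequence lies. At 0.5 to 2 kb the density was 44.8 per Mb upstream (38.7 to 51.5) and 26.8 downstream (18.2 to 38.1). There the rule left 4375 kb of sequence upstream and 1156 kb downstream. At 2 to 10 kb the intervals overlapped over most of their range (17.1 to 23.2 and 16.0 to 23.2). Beyond 10 kb the order was opposite, 8.37 upstream (6.58 to 10.5) and 10.2 downstream (8.14 to 12.7), with intervals that overlap. Gaps between divergent genes held 26.2 per Mb, tandem gaps 17.0 and convergent gaps 16.3. At 0.5 to 2 kb the values were 45.3 (36.4 to 55.7), 40.8 (33.8 to 48.8) and 27.7 (16.1 to 44.3), with intervals that overlap. They were 27.3, 14.4 and 23.5 at 2 to 10 kb, and 11.8, 10.5 and 9.22 beyond 10 kb. Annotated transposable elements made up 10.7% of the sequence and held 3 summits (0.446%), and soft-masked repeat bases made up 26.7% of it and held 22.3% of summits. No filter on reads in repeats is named in the sources used here.

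The summits clustered in some gaps between genes. The 673 lay in 413 gaps, 282 of which held 1 summit and 80 held 2, while 14 gaps held 5 or more and 107 summits in all. Another intergenic summit lay within 10 kb for 378 (56.2%) and within 500 bp for 79 (11.7%), and 172 were the sole IDR summit of any kind within 10 kb. Some nearby summits share a peak interval, and each is counted separately in the gaps.

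The gap with the most summits was the 37.1 kb between RFeSP, the gene for the Rieske iron-sulfur protein of mitochondrial complex III, and chinmo on 2L. It held 14 with signals of 186 to 1419, and 13 of them stood within 21.7 kb on the chinmo side. The nearest TSS was that of chinmo for 11 of the 14 and that of RFeSP for 3. The strongest were 1419 at 24.6 kb from RFeSP (498 in replicate 1 and 924 in replicate 3), 1139 at 29.3 kb and 969 at 22.6 kb. The ETS core was at 2 of the 14, with signals of 411 and 191, and not at the 3 strongest.

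Both other gaps are on 3L. The 75.05 kb between NijA, a Ninjurin gene, and CG43245 held 11 summits with signals of 230 to 1304, all in its right part from 38.4 kb on. The 47.9 kb between hng3 and CG13898 held 11 with signals of 187 to 556, spread from 1.11 to 47.4 kb. None of these 22 summits had the core. With the next gap included, the hng3 series was 17 summits over 68.0 kb with neighbours within 10 kb of each other.

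**Figure D5:**
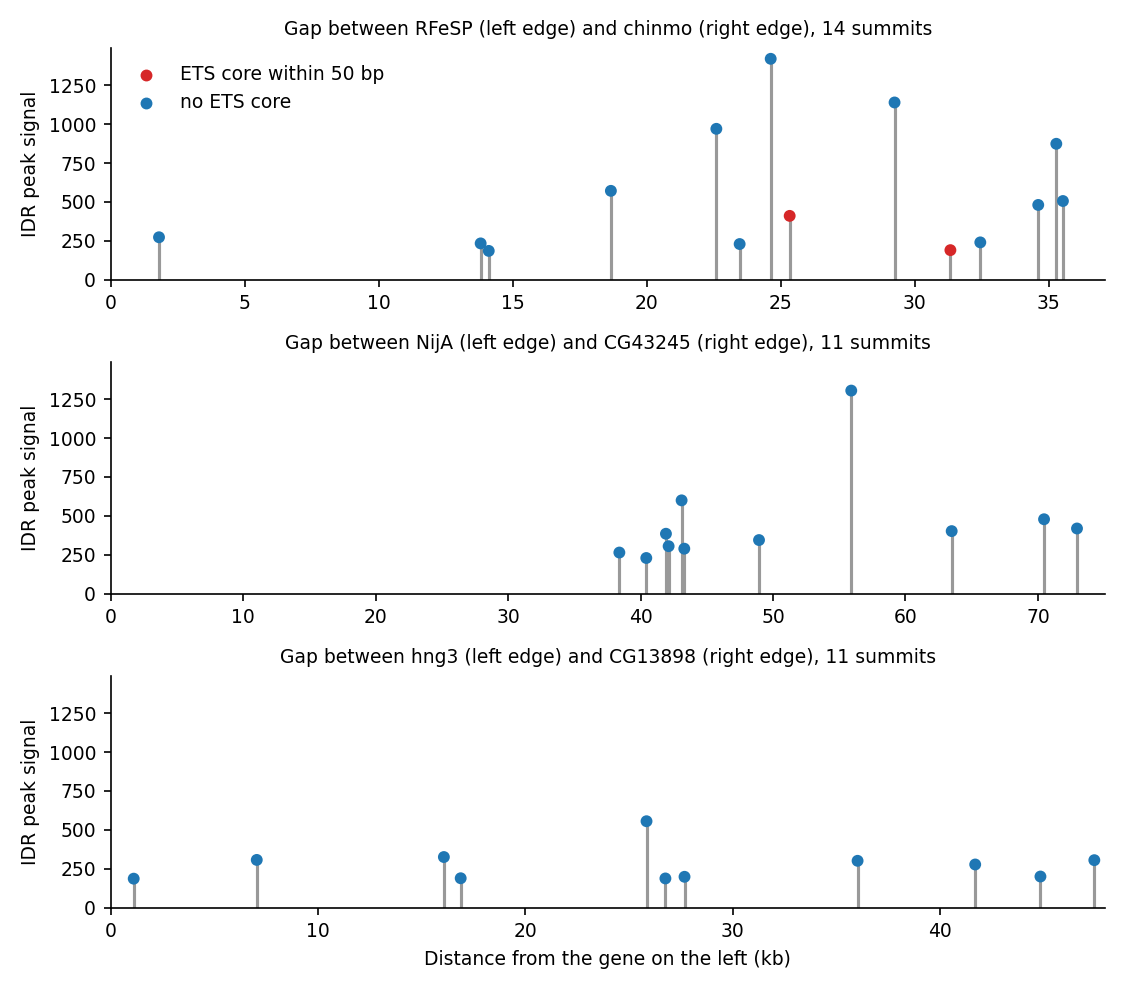
IDR peak signal (y axis, authors' units) of each intergenic summit by distance from the gene on the left (x axis, kb) in the 3 gaps with most summits. Red points have the ETS core within 50 bp, which 2 of the 14 in the chinmo gap and none in the other gaps have; signals reach 1419, 1304 and 556.

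The plot of the gaps shows the chinmo summits gathered towards chinmo and the hng3 summits spread over the whole gap.

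The nearest protein-coding genes numbered 469 of 13945 (3.36%), and 356 of them had 1 intergenic summit. The gene with most was CG43245 with 14, followed by chinmo with 11 and CG13898 with 9. Among the 469, 110 (23.5%, 19.7% to 27.6%) also had a summit at their own promoter, against 2175 of all 13945 (15.6%). The gene lists that follow were compiled from known roles, but with earlier results of these data known. The counts are read beside the 3.36% without a test, and they are not adjusted for the length of sequence beside each gene.

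Of 28 genes of the ecdysone response 6 were nearest to an intergenic summit. The strongest was at chinmo, and Eip78C, an ecdysone-induced gene for a nuclear receptor, had a summit 1672 bp from its TSS with a signal of 593. The cell death gene hid had one with 344. Of 8 ETS factor genes 2 were nearest, aop, the repressor Yan, with 2 summits reaching 754, and pnt, the activator Pointed, with 1 of 224. Both act downstream of receptor tyrosine kinases, and both also had a summit at their own promoter.

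Of 29 segmentation and patterning genes 7 were nearest, with slp2, a forkhead gene, at 761, the Hedgehog receptor gene ptc at 544 and the T-box gene Doc2 at 346 with 3 summits. Of 34 signalling genes 4 were, including the Wnt ligand gene wg at 335, the Wnt receptor gene fz at 322 and the BMP ligand gene dpp at 321. Of 17 homeotic genes and cofactors 3 were, Dfd at 216, disco-r at 213 and tsh at 185, each at or below the lower quartile of 216. The homeotic count was 1 without replicate 3, 4 without replicate 1 and 0 among peaks above the median signal of the list.

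Tissue regulators had a few each. Of 22 mesoderm and muscle genes 2 were nearest, the visceral mesoderm forkhead gene bin at 1021, 1264 bp from its TSS, and the FGF ligand gene ths at 285. Of 30 nervous system genes 3 were, the Sox genes SoxN at 311 and D at 296, and fkh at 186. Of 14 gut and salivary gland genes 3 were, CrebA at 282, the GATA factor gene srp at 237 and fkh, which is on both lists. Of 20 tracheal and epidermal genes 2 were, the POU gene vvl with 4 summits reaching 393 and esg at 186. Of 80 cytosolic ribosomal protein genes 1 was, RpS23, at 245, and without replicate 3 the count was 0. Among peaks above the median signal, the counts were 4 for segmentation, 0 for gut and salivary gland, 1 for tracheal and epidermal and 1 for ETS factor genes. Beyond 2000 bp from a TSS they were 3 for the ecdysone response, 0 for ETS factors, 1 for mesoderm and muscle and 2 for signalling genes. In these subsets fewer of all 13945 protein-coding genes were nearest than the 469 of the full set, as given at the end. The 3.36% is therefore not the background of these counts, and the falls are not read as results about the lists.

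When either gene bordering a gap was counted, 7 of 17 homeotic genes, 10 of 29 segmentation genes and 2 of 80 ribosomal protein genes had an intergenic summit beside them. The counts were 7 of 28 for the ecdysone response and 7 of 34 for signalling genes. They were 5 of 22 for mesoderm and muscle and 4 of 30 for nervous system genes. For gut and salivary gland (3 of 14), tracheal and epidermal (2 of 20) and ETS factor genes (2 of 8) they did not change. The count over all protein-coding genes then rose from 469 to 762 of 13945.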

How the data were processed

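ChIP-seq peak lists of 2 replicates were used. The authors called dm6 peaks for each replicate and for the pooled alignments against a control library, and derived the IDR list from these, per the file descriptions. Aligner, caller and IDR threshold were not given in the sources used here. The deposited lists give each peak a signal, in the authors' units, a −log10 q-value and a summit offset in bp; the q-value was not used. The replicate and pooled lists hold 30000 peaks each. No file used here gives read counts, so depth is unknown.

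Summits were placed on genes with Ensembl release 115 (BDGP6.54), and sequence was read from the RefSeq Release 6 genome, the dm6 assembly. Strings were searched on both strands within 50 bp; the ETS consensus contains the ETS core. Each summit was set against windows 400 bp to either side by the exact McNemar test, taking the larger p. Shares were compared between classes by Fisher's exact test. Both used Benjamini-Hochberg adjustment with a threshold of 0.05. The hexamer scan was run on simulated windows of equal base composition at summit and flanks, and Fisher's test on simulated counts without adjustment. The real windows differed in mean G+C content (33.8% at summits, 42.8% and 42.7% in flanks), which the simulation did not cover. Binomial intervals are Clopper-Pearson and density intervals exact Poisson, at 95%, and cover counting error only. Nearby summits share sequence, and some share a peak interval, so they are not fully independent.

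The regions named are the 10 of highest signal, the 3 highest beyond 10 kb, the 3 gaps with most summits, up to 3 genes per list with the strongest summit, and the 5 hexamers of smallest adjusted p per direction. Regions, strings and gene lists were chosen with earlier results of these data known. Octamer contexts, counts by distance and densities were described without a test. Alternatives were the other window sizes, flanks, distances, peak subsets and single replicates given at the end. Tools were Python 3.11.15, numpy 2.4.6, scipy 1.17.1, pandas 2.3.3 and matplotlib 3.10.9.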

Additional observations from a re-analysis of the deposited data

How the results depend on the processing

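Of the results recomputed under the alternatives, 709 values kept their direction and side of the threshold, or moved by less than their spread, 47 moved, 16 passed the threshold only under an alternative, 6 no longer passed it and 1 changed sign. No paired analysis was possible because the samples form 1 group. The share of intergenic summits was 12.5% among peaks above the median signal, 10.1% beyond 1000 bp from any start and 8.91% beyond 2000 bp from a protein-coding TSS. Of all 13945 protein-coding genes, the genes nearest numbered 238 among peaks above the median signal and 293 beyond 2000 bp. They numbered 762 with both bordering genes, against 469 in the main setting.

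Without 1 replicate, the ETS core ratio was 2.64 to 2.83, the excess of CCGGAAGT 0.718 to 1.75 percentage points, strings called higher 0 to 2, higher hexamers 49 to 50, lower hexamers 17 to 26, and calls against other classes 0 to 3. The excess of CCGGAAGT was 1.60 points above the median signal, 1.35 beyond 2000 bp, 1.19 in 25 bp windows and 1.56 in 100 bp windows, and under each of these 1 string was called higher. Higher and lower hexamers numbered 9 and 0 above the median signal (313 regions), 51 and 16 beyond 2000 bp, 19 and 1 in 25 bp windows, 134 and 93 in 100 bp windows, and 16 and 3 with flanks 800 bp away. Beyond 1000 bp from any start 20 were lower. The cause of the smaller hexamer counts with the 800 bp flanks was not tested; the subsets hold fewer regions. Calls against other classes numbered 2 above the median signal, 4 without summits within 500 bp of a stronger one and 7 in 100 bp windows. The share found in both replicates was 75.04% within 50 bp, 99.0% within 250 bp and 66.4% among the strongest peaks of each list, where the difference from promoters was -1.78 points. Read depth is unknown, so weak regions that were missed cannot be counted.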
